A study of Solanum lycopersicum with 24 samples.

Results

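A total of 83 tomato genes formed the group described here, out of 20429 genes measured under a LOC number, the identifier that RefSeq gives to genes without a symbol. They were chosen on root expression. On the log2 scale of the deposited array signals, the mean of *res* control roots had to be at least 1.5 above that of WT control roots, the mean of WT salt-stressed roots had to be at least 1.5 above WT control roots, and *res* and WT roots had to be within 1 of each other in salt. The genes are thus those that salt raised in WT roots and that were already high in *res* roots without salt. Of the 20429 genes, 623 met the first limit, 373 the second and 134 both. Of these 134, 83 were within 1 in salt, 25 were over 1 higher in *res* than in WT, and 26 were over 1 lower.

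The *res* mutant of *Solanum lycopersicum* and its background genotype, cv. Moneymaker (WT), were grown in hydroponics, and salt stress of 200 mM NaCl for 5 days was given to six-week-old plants. Roots and leaflets of the first fully expanded leaf were taken from *res* plants in salt, *res* plants in control, WT plants in salt and WT plants in control. Each of these 8 groups had 3 arrays, 24 in all, and each array carried RNA pooled from 3 plants. Control tissue was harvested before salt was applied, so that salt and 5 days of growth cannot be told apart in any comparison of salt with control. A single mutant line, *res*, stands for the genotype.

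Salt around the roots limits water uptake and brings sodium and chloride into the plant, and plants answer by changing the transcripts of genes for osmotic adjustment, ion transport, cell protection and defence. Some of these genes respond to abscisic acid, others to jasmonate or ethylene, and many are shared between abiotic stress, wounding and attack by pathogens. A mutant that holds such genes high without stress can be compared with WT by whether salt moves the genes further and by whether the same genes are also altered in another organ. The values of the 83 genes in roots were fixed by the way they were chosen and are given as a description. Their values in leaflets played no part in the choice and were tested.

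The sources used here name few of these genes. RefSeq lists 81 of the 83 as protein-coding, LOC101252898 as a long non-coding RNA and LOC101245969 as another RNA. Only 2 carry an older name. LOC543961 is also listed as *SUS1*, *sus2* and *ssf*, a sucrose synthase, the enzyme that splits sucrose into fructose and UDP-glucose in sink tissues. LOC544313 is also listed as *GAD* and *LeGAD1*, a glutamate decarboxylase, which makes the amino acid γ-aminobutyrate (GABA) from glutamate. No function is given here for the other genes.

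The tissue labels were checked with marker genes. *RBCS-2A*, *CAB4*, *PsbQ* and *PSBR*, which serve photosynthesis, were higher on every leaflet array than on any root array, and the iron uptake regulator *fer*, *NRAMP1* and *RSI-1* were higher on every root array. *FRO1* and *GLK2* overlapped between tissues. Arrays were set against the mean of their 2 partners. Replicate 3 of WT salt roots was more than 2-fold off at 1399 of 67795 probe sets, and at 21 of the 83 genes. Replicate 1 of WT control leaflets was so at 2494 probe sets and at 12 of the 83 genes, and the other 2 arrays of that group at 782 and 1054. The arrays of groups other than these had 58 to 239. The counts and named values that they moved most are given below with and without them. In tested comparisons a gene is called, or said to rise or fall, where it differed at least 2-fold, which is 1 on the log2 scale, and limma with Benjamini-Hochberg adjustment across the 67795 probe sets gave p under 0.05. The rises of the 83 genes in roots are differences of means. Log2 differences of such tests are given ± SE.

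In roots the 83 genes had similar median levels in 3 of the 4 groups. The median of the group means was 5.71 in *res* salt roots, 5.82 in *res* control roots and 5.44 in WT salt roots, against 3.22 in WT control roots (log2 signal). Over all 20429 genes the medians were 4.26, 4.06, 4.15 and 4.06 in the same order of groups. WT control roots thus stood apart from the 3 other groups. The rise of the 83 genes in *res* control roots over WT control roots ran between 1.54 and 4.91 with a median of 2.52, and their rise with salt in WT roots between 1.51 and 4.76 with a median of 2.02. For all 83 genes the 3 *res* control arrays were above the 3 WT control arrays, and the 3 WT salt arrays were above the 3 WT control arrays. Over all 20429 genes these orders held at 24.8% and 19.8%. Both differences were set by the choice of genes, and they share the WT control arrays.

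**Figure D1:**
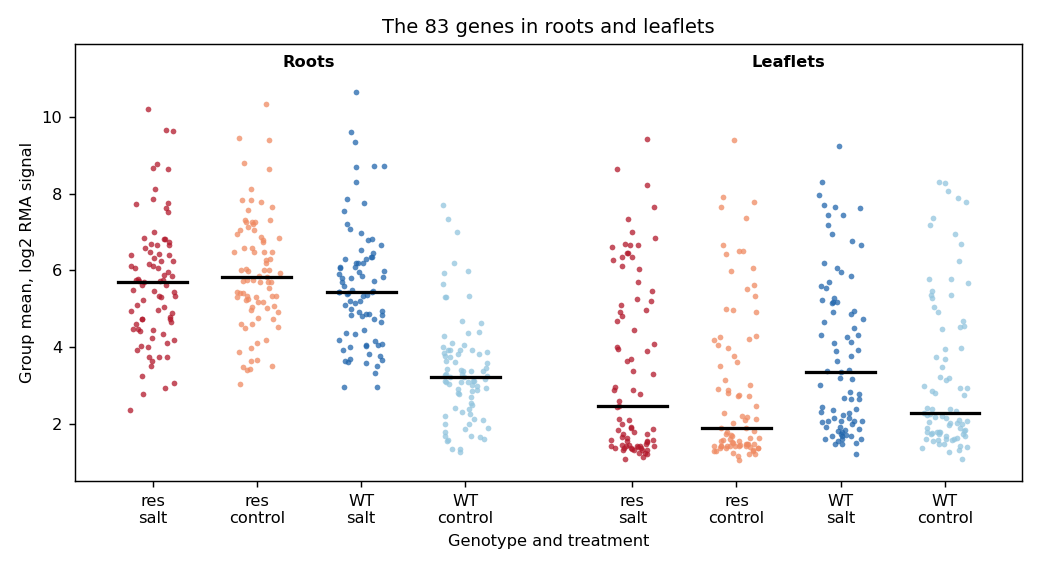
Group means (log2 RMA signal, 3 arrays each) of the 83 genes, 1 point per gene, with *res* left of WT and salt left of control, roots on the left and leaflets on the right; black bars are medians. In roots the medians were 5.71, 5.82, 5.44 and 3.22 from left to right, and in leaflets 2.45, 1.90, 3.36 and 2.28.

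The *res* control level was close to the WT salt level for most genes. It was within 1 of it for 60 genes, at least 1 above it for 20 and at least 1 below it for 3, with a median difference of 0.23 and a range of -2.22 to 2.24. The size of the constitutive rise was larger than that of the WT salt rise for 53 of the 83 genes. Since the limit on the salt groups keeps both genotypes within 1 of each other there, the salt change of each gene in *res* was fixed, to within 1, as the WT salt rise minus the constitutive rise.

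**Figure D2:**
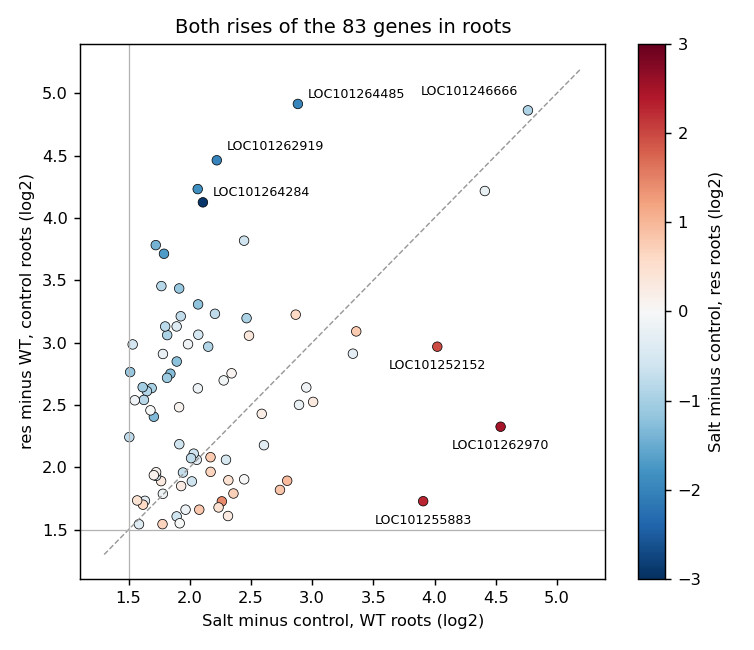
Rise with salt in WT roots (x axis) against the difference of *res* from WT in control roots (y axis), both log2, for the 83 genes, coloured by salt minus control in *res* roots. Grey lines mark the limits of 1.5 and the dashed line equal rises; genes far above it, such as LOC101264284, were lower in salt than in control in *res*, and genes far below it, such as LOC101262970, higher.

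Genes are taken in the order of the smaller of their 2 rises, which was largest for LOC101246666. It read 7.80, 7.97 and 7.82 in *res* salt roots, 8.57, 8.90 and 8.91 in *res* control roots and 9.07, 9.22 and 7.80 in WT salt roots, against 3.78, 3.92 and 4.10 in WT control roots (log2 signal of the 3 arrays). *res* control arrays and 2 of the 3 WT salt arrays thus lay near 9, and all WT control arrays near 4. The differences of means were 4.86 for *res* over WT in control, or 29.1-fold, and 4.76 for salt over control in WT. Its place among the 83 genes rests on replicate 3 of WT salt roots. Without that array the *res* mean in salt was 1.28 below the WT mean, past the limit of 1.

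LOC101263938 came next, with 6.09, 6.24 and 6.40 in *res* salt roots, 6.42, 6.48 and 6.51 in *res* control roots and 6.84, 6.83 and 6.34 in WT salt roots, against 2.31, 2.31 and 2.14 in WT control roots. The 9 arrays outside WT control all lay between 6.09 and 6.84. The differences were 4.22 and 4.41.

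LOC101255604 read 7.79, 7.78 and 7.59 in *res* salt roots, 6.94, 6.97 and 6.91 in *res* control roots and 7.20, 7.25 and 7.17 in WT salt roots, against 3.94, 3.88 and 3.73 in WT control roots. Here the 4 groups did not overlap, and *res* salt roots were the highest. LOC101252152 behaved in the same order in the means, with 9.65, 9.58 and 9.64 in *res* salt roots, 7.66, 7.66 and 7.65 in *res* control roots, 9.32, 9.09 and 7.72 in WT salt roots and 4.62, 4.09 and 5.36 in WT control roots. Its WT arrays were scattered in both treatments, and replicate 3 of WT salt roots was close to the *res* control level.

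LOC101244141 read 5.67, 5.98 and 5.48 in *res* salt roots, 6.04, 5.78 and 6.25 in *res* control roots and 6.45, 6.46 and 6.42 in WT salt roots, against 2.97, 3.44 and 2.92 in WT control roots. LOC101264485 read 6.14, 6.21 and 6.11 in *res* salt roots, 7.97, 8.29 and 8.13 in *res* control roots and 6.11, 6.49 and 5.70 in WT salt roots, against 3.45, 2.96 and 3.23 in WT control roots. The constitutive rise of LOC101264485, 4.91, was the largest of all 83 genes, and its *res* control arrays stood above every other root array. LOC101254813 read 7.75, 7.69 and 7.80 in *res* salt roots, 7.16, 7.17 and 7.09 in *res* control roots and 7.08, 7.12 and 6.14 in WT salt roots, against 4.16, 3.63 and 3.96 in WT control roots. With a difference of 0.97 between *res* and WT in salt it was also the gene nearest to the limit on the salt groups.

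LOC101261825 read 10.02, 10.30 and 10.29 in *res* salt roots, 10.30, 10.38 and 10.34 in *res* control roots and 10.50, 10.74 and 10.71 in WT salt roots, against 7.73, 7.603 and 7.76 in WT control roots. All 9 arrays outside WT control were above 10. The last of the 10 genes with the largest smaller rise were LOC101246381, with rises of 2.52 in *res* control and 3.01 with salt in WT, and LOC101244796, with 2.50 and 2.89. Their leaflet values are given below.

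**Figure D3:**
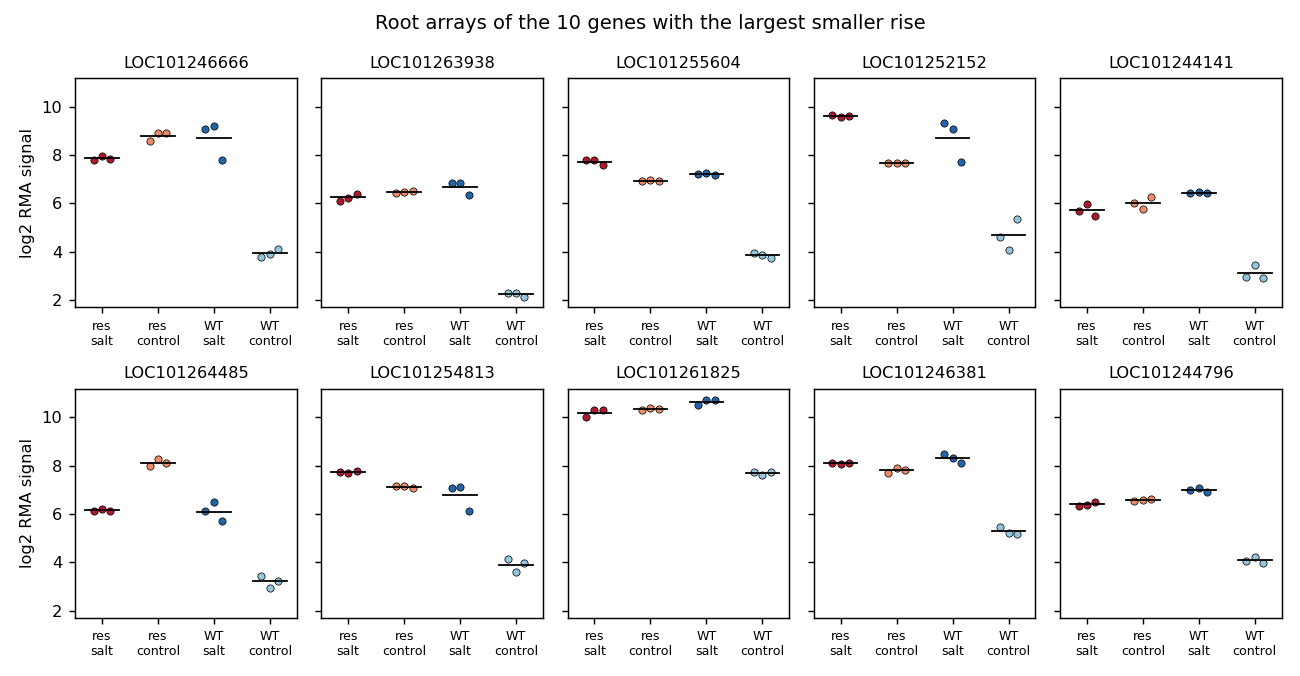
Log2 RMA signal of the 12 root arrays for the 10 genes whose smaller rise was largest, 1 point per array and a bar at the group mean, *res* left of WT and salt left of control. The WT control arrays are the lowest in every panel, and replicate 3 of WT salt roots lies below its group for LOC101246666, LOC101252152 and LOC101254813.

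The sucrose synthase gene LOC543961 read 9.67, 9.67 and 9.63 in *res* salt roots, 9.43, 9.44 and 9.44 in *res* control roots and 9.52, 9.44 and 9.83 in WT salt roots, against 7.11, 6.88 and 7.03 in WT control roots. Its 9 arrays outside WT control lay between 9.43 and 9.83. The glutamate decarboxylase gene LOC544313 read 3.50, 3.87 and 3.87 in *res* salt roots, 3.52, 3.67 and 3.27 in *res* control roots and 4.37, 4.71 and 3.49 in WT salt roots, against 1.85, 1.93 and 1.86 in WT control roots. Replicate 3 of WT salt roots was below its partners and within the range of the *res* arrays. Its rises were 1.61 in *res* control and 2.31 with salt in WT.

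The salt differences in *res* roots were small for most of the genes. The difference between *res* salt and *res* control roots was below 1 in size for 65 genes, with a median of -0.33. It was at least 1 lower in salt for 14 genes and at least 1 higher for 4. For 48 genes all *res* control arrays were above all *res* salt arrays, an order that held at 15.7% of the 20429 genes, and for 21 all *res* salt arrays were above, against 35.1%. These shares describe the genes and follow in part from their choice.

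The genes furthest below their control level in *res* salt roots were LOC101264284, LOC101262919 and LOC101264485. LOC101264284 read 3.11, 2.89 and 2.33 in *res* salt roots and 5.72, 5.56 and 5.799 in *res* control roots, beside 3.14, 3.96 and 3.93 in WT salt roots and 1.57, 1.74 and 1.39 in WT control roots. LOC101262919 read 4.33, 3.89 and 3.77 in *res* salt roots, 5.98, 6.05 and 5.995 in *res* control roots and 3.73, 3.87 and 3.69 in WT salt roots, against 1.47, 1.62 and 1.55 in WT control roots. For all 3 genes the *res* control arrays were the highest of the 4 groups without overlap. The salt change in *res* was -2.92 for LOC101264284, -2.01 for LOC101262919 and -1.97 for LOC101264485.

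The 4 genes at least 1 higher in *res* salt than in *res* control roots were LOC101262970, LOC101255883, LOC101252152 and LOC101252898. LOC101262970 read 6.67, 6.17 and 6.58 in *res* salt roots, 3.42, 4.31 and 4.18 in *res* control roots, 7.29, 7.01 and 4.25 in WT salt roots and 1.67, 1.72 and 1.54 in WT control roots. Replicate 3 of WT salt roots was near the *res* control level, far below the other 2. LOC101255883 read 6.35, 6.48 and 6.39 in *res* salt roots, 4.07, 4.15 and 4.12 in *res* control roots and 6.58, 6.56 and 5.74 in WT salt roots, against 2.58, 2.25 and 2.33 in WT control roots, with *res* control between WT control and both salt groups. The salt change in *res* was 2.50 for LOC101262970, 2.29 for LOC101255883, 1.97 for LOC101252152 and 1.44 for the non-coding LOC101252898.

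Replicate 3 of WT salt roots bore on the choice of genes. At 15 of the 83 genes it was over 2-fold lower than the mean of the other 2 arrays, and at 6 it was over 2-fold higher. The lowest were LOC101262970, with a difference of -2.90, and LOC101265293, with -1.93. Without that array 75 genes met the 3 limits, of which 68 were among the 83. The 15 that no longer met them were LOC101246666, LOC101265293, LOC101267632, LOC101264391, LOC101264466, LOC101267385, LOC101256566, LOC101250479, LOC101244900, LOC101245969, LOC101254971, LOC101256484, LOC101259348, LOC101261481 and LOC101264232. Of these, 9 had a rise with salt in WT roots under 1.5, and LOC101246666 was the only one among the 10 genes with the largest smaller rise. The difference of *res* from WT in salt was -1.40 for LOC101265293 and -1.02 for LOC101267632 without the array. LOC101262970 still met the limits, with a rise of 5.51 with salt in WT roots in place of 4.54, as did LOC101252152, with 4.52 in place of 4.02.

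The genes nearest to the limits were close to each other on either side. Just inside the first limit were LOC101267632 (1.54) and LOC101261529 (1.54), and just outside it LOC101257377 (1.44) and LOC101265430 (1.42). Just inside the second limit were LOC101267231 (1.51) and LOC101259348 (1.51), and just outside it LOC101247013 (1.49) and LOC101263046 (1.49). For the difference of *res* from WT in salt, LOC101254813 (0.97) and LOC101264466 (0.92) were just inside, and LOC101253864 (-1.01) and LOC101254223 (1.04) just outside. Besides the probe set used, 4 of the 83 genes had others, 6 in all, and 1 of these 6, a second probe set of LOC101244232, met the same limits. For LOC101258704, LOC101248601 and LOC101256566 the root pattern was seen in the probe set used only. The rises in *res* control and with salt in WT were 0.17 and 0.08 in the other probe set of LOC101258704. They were -0.12 and 0.13 in that of LOC101248601, and 0.48 and 0.14, and -0.26 and -0.45, in those of LOC101256566.

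Of the 897 genes that carry a symbol of another kind, 13 met the same 3 limits. They were *TSI-1*, *CHI3*, *JA2*, *cel5*, *AS1*, *fdh*, *P69B*, *THT1-3*, *cat1*, *SPM1*, *EXPA5*, *SlCKX2* and *PSBP*. Among them are genes for a NAC transcription factor (*JA2*), an asparagine synthetase (*AS1*), an endoglucanase (*cel5*), a chitinase (*CHI3*), a catalase (*cat1*), a formate dehydrogenase (*fdh*), a subtilisin-like protease (*P69B*), a tyramine hydroxycinnamoyl transferase (*THT1-3*), an expansin (*EXPA5*) and a cytokinin oxidase (*SlCKX2*).

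In the RefSeq gene order, 6 of the 83 genes had a directly adjacent gene that met the same limits. The longest run was LOC778321, LOC101246381, *TSI-1* and LOC101246666, 4 genes in a row, of which *TSI-1* encodes a stress-induced protein. LOC101246666, as given above, met the limits only with replicate 3 of WT salt roots included, and LOC778321 and LOC101246381 met them without it too. *TSI-1* read 9.99, 9.94 and 9.98 in *res* salt roots, 9.94, 9.92 and 9.999 in *res* control roots and 10.03, 9.87 and 9.80 in WT salt roots, against 5.202, 5.44 and 5.47 in WT control roots. LOC101246381 read 8.12, 8.09 and 8.12 in *res* salt roots, 7.72, 7.91 and 7.84 in *res* control roots and 8.50, 8.32 and 8.11 in WT salt roots, against 5.49, 5.22 and 5.196 in WT control roots. At both genes the WT control arrays lay apart below all others. LOC778321, at the edge of the run, read 3.49, 3.47 and 3.58 in *res* salt roots, 3.28, 3.80 and 3.44 in *res* control roots and 4.23, 4.30 and 3.61 in WT salt roots, against 1.43, 1.70 and 1.68 in WT control roots.

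The run ended sharply on one side. LOC101246091, the gene before LOC778321, averaged 5.48 ± 0.01 in *res* salt roots, 5.08 ± 0.04 in *res* control roots, 5.30 ± 0.28 in WT salt roots and 4.94 ± 0.15 in WT control roots (SD, n = 3 each). LOC101246964, the gene after LOC101246666, averaged 3.36 ± 0.21 in *res* salt, 3.34 ± 0.17 in *res* control, 2.75 ± 0.16 in WT salt and 2.07 ± 0.03 in WT control roots, where WT control was again the lowest group but the limits were not met. How similar the sequences of the 4 genes are, and whether their probes read each other's transcripts, was not tested.

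In leaflets LOC101246666, LOC101246381 and *TSI-1* all rose with salt in WT. In salt they were lower in *res* than in WT, with log2 differences of -3.03, -1.70 and -1.53 in that order. Their salt response was lower in *res* than in WT, with differences of -2.82, -1.40 and -1.21, all called. Of the 4 neighbours only LOC101246381 was called with salt in *res*. LOC101246666 read 1.54, 1.40 and 1.49 in *res* salt leaflets and 1.69, 1.44 and 1.58 in *res* control leaflets, against 4.56, 4.62 and 4.34 in WT salt leaflets and 2.30, 1.49 and 1.58 in WT control leaflets. Salt raised it in WT (log2 difference 2.72 ± 0.18, adjusted p = 3.05e-07), and in *res* the difference was -0.10 (adjusted p = 0.865). LOC101246381 read 3.85, 4.21 and 3.92 in *res* salt leaflets and 1.99, 1.69 and 1.95 in *res* control leaflets, against 5.796, 5.63 and 5.66 in WT salt leaflets and 1.92, 2.41 and 2.22 in WT control leaflets. Both genotypes rose, 4.34-fold in *res* leaflets and 11.4-fold in WT leaflets. The control arrays lay around the median of all probe sets, 1.84 to 2.17 on leaflet arrays, so that these folds are not exact. *TSI-1* averaged 1.24 ± 0.07 in *res* salt leaflets and 1.16 ± 0.04 in *res* control leaflets, against 2.77 ± 0.36 in WT salt leaflets and 1.49 ± 0.13 in WT control leaflets (SD, n = 3 each). Its rise passed the test in WT (log2 difference 1.29 ± 0.15, adjusted p = 4.85e-05). LOC778321 was called in no leaflet comparison.

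**Figure D4:**
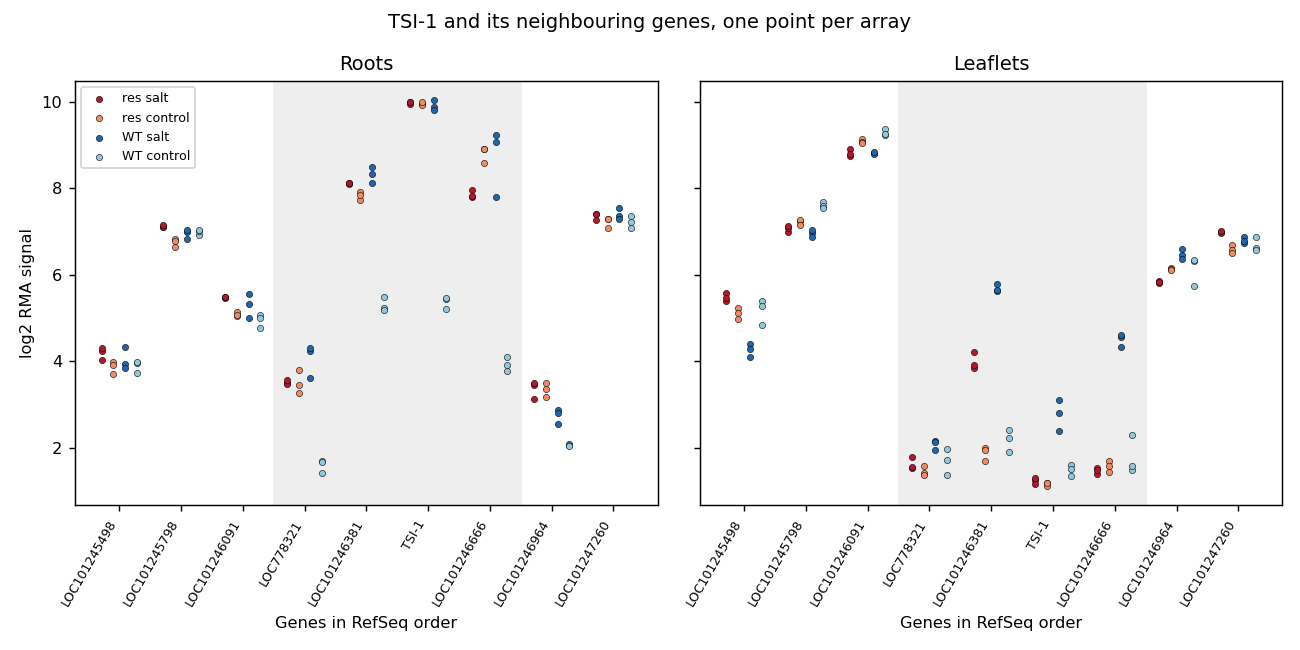
Log2 RMA signal of each array for *TSI-1* and the genes around it in RefSeq order, roots on the left and leaflets on the right, with *res* left of WT and salt left of control within each gene; the shaded genes met the 3 limits in roots. In roots the shaded genes are low only in WT control, and in leaflets the group mean of each shaded gene was highest in WT salt.

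Another pair of neighbours was LOC101244438 and LOC101244141. LOC101244438 averaged 6.66 ± 0.06 in *res* salt roots, 7.26 ± 0.10 in *res* control roots and 7.54 ± 0.20 in WT salt roots, against 5.65 ± 0.26 in WT control roots (SD, n = 3 each). The next gene on the other side of LOC101244141, LOC101243845, averaged 8.33 ± 0.13 in *res* salt, 8.73 ± 0.08 in *res* control, 8.74 ± 0.24 in WT salt and 7.57 ± 0.28 in WT control roots and missed the limits with the same order of groups. In leaflets all 3 genes had group means under 2. LOC101252453 lay beside the chitinase gene *CHI3*. LOC101252453 read 6.03, 5.997 and 6.18 in *res* salt roots, 6.16, 6.39 and 6.04 in *res* control roots and 5.38, 5.53 and 4.68 in WT salt roots, against 3.22, 2.996 and 3.41 in WT control roots. *CHI3* averaged 9.40 ± 0.14 in *res* salt, 8.996 ± 0.10 in *res* control, 9.15 ± 0.41 in WT salt and 4.68 ± 0.22 in WT control roots, while *CHI17*, the next gene after it, had means between 1.48 and 3.05 in all 4.

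A list of 13 abscisic acid and dehydration genes, found by symbol, was set beside the 83 genes. It was written with earlier results of these arrays known. In WT roots salt raised 7 of the 13 and lowered none, where 1.5% of all probe sets were called higher and 1.21% lower. In control roots 4 of the 13 were higher in *res* than in WT and none lower, beside 2.96% and 2.47% of all probe sets. Shares of genes with 1 probe set each, as in the list, were not taken for roots. In leaflets, given below, such shares were larger than those of all probe sets. Only *TSI-1* and *TPS1* were called in both comparisons, and only *TSI-1* met the 3 limits.

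The dehydrin gene *TAS14*, whose product protects cells during water loss, rose with salt in roots of both genotypes. It was 34.9-fold higher in *res* (log2 difference 5.12 ± 0.23, adjusted p = 1.66e-08) and 40.3-fold higher in WT (log2 difference 5.33 ± 0.23, adjusted p = 1.34e-08). WT control roots averaged 2.04, near the median of all probe sets, so that the fold in WT is not exact. Between *res* and WT control roots *TAS14* was not called (log2 difference 0.71 ± 0.23, adjusted p = 0.0608). *PP2C-2*, for a phosphatase of the 2C type, which dampens the abscisic acid signal, had a similar pattern, with rises of 6.44-fold in *res* and 16.7-fold in WT, and no call between genotypes in control (log2 difference 0.60 ± 0.40, adjusted p = 0.463). *ER5*, an ethylene-responsive gene, was higher in *res* control roots (log2 difference 4.11 ± 0.20, adjusted p = 8.72e-09) and fell with salt in *res* (log2 difference -2.92 ± 0.20, adjusted p = 5.87e-07). In *res* roots 2 of the 13 rose with salt and 2 fell (1.58% and 1.53% of all probe sets), in salt roots 1 was higher in *res* and none lower (1.18% and 0.985%), and 5 had a lower and none a higher salt response in *res* than in WT (1.89% and 1.8%).

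In leaflets the list moved mostly upward with salt. Of the 13 genes, 8 rose and 1 fell in WT, where 4.56% and 2.42% of all probe sets were called. Among the 20429 genes, with 1 probe set each as in the list, 11% and 5.67% were called. In *res* 6 rose and none fell (1.84% and 1.56% of all probe sets, 4.24% and 3.83% of the 20429 genes). The response differed between genotypes for 6 of the 13, higher in *res* for *ER5* and lower for 5. The shares were 1.66% and 2.46% of all probe sets, and 4.03% and 6.09% of the 20429 genes. Between *res* and WT, 3 were higher and 1 lower in control leaflets (1.32% and 2.6% of all probe sets, 2.61% and 5.78% of the 20429 genes). In salt leaflets 1 was higher and 2 lower (1.15% and 3.21% of all probe sets, 2.18% and 7.84% of the 20429 genes).

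In leaflets the medians of the 83 genes were below those of the 20429 genes in every group. The medians of the group means were 2.45 in *res* salt leaflets, 1.90 in *res* control leaflets, 3.36 in WT salt leaflets and 2.28 in WT control leaflets, beside 3.60, 3.50, 3.96 and 3.62 for all 20429 genes. On all 12 leaflet arrays 33 genes were above the median of all probe sets, which lay between 1.84 and 2.17, and 14 were below it. The share of the 20429 genes above it on all 12 arrays was not counted, so that the 33 cannot be compared with it. The shares of genes always below it were 16.9% of the 83 and 18.5% of the 20429. Probe sets differ in brightness and detection calls were not used here, so that a low signal cannot be read as absence and a fold taken over a group below that median is not exact. None of those 14 genes was called in the 4 leaflet comparisons of genotypes or treatments. Of the 83 genes, 48 were called in at least 1 of the 4, which is 57.8%, against 26.7% of the 20429 genes.

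Salt raised more of the 83 genes in WT leaflets than it lowered. In WT, 26 were higher and 5 lower in salt, which is 31.3% and 6.02% of the 83. Among the 20429 genes 11% were called higher and 5.67% lower, and among all 67795 probe sets 4.56% and 2.42%. In *res*, 18 of the 83 were higher and 4 lower, 21.7% and 4.82%, against 4.24% and 3.83% of the 20429 genes. The medians of the salt change were 0.12 in *res* and 0.30 in WT for the 83 genes, and 0.02 in *res* and 0.09 in WT for the 20429. Among the 290 other genes that rose by at least 1.5 with salt in WT roots, 11.0% were called higher with salt in *res* leaflets and 20.3% in WT leaflets. Among the 540 other genes at least 1.5 higher in *res* control roots, the shares were 22.04% in *res* and 13.3% in WT leaflets. These shares are given side by side without a test.

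The genes called higher with salt in leaflets of both genotypes were 11 of the 83 (13.3%, against 2.37% of the 20429 genes). A further 7 passed the test in *res* and missed it in WT (8.43%, against 1.86%), and 15 passed it in WT and missed it in *res* (18.1%, against 8.6%). Passing in 1 genotype and missing in the other is no test of a difference, which is given below. LOC101244796 had the largest rise in WT. It read 6.50, 6.82 and 6.62 in *res* salt leaflets and 2.84, 2.91 and 2.90 in *res* control leaflets, against 6.69, 6.80 and 6.82 in WT salt leaflets and 2.40, 2.88 and 3.49 in WT control leaflets. Salt and control did not overlap in either genotype, and the *res* and WT arrays overlapped in control and in salt. The rise was 13.6-fold in *res* (log2 difference 3.76 ± 0.21, adjusted p = 3.41e-07) and 14.4-fold in WT (log2 difference 3.85 ± 0.21, adjusted p = 4.58e-08). The rises differed by -0.08 (adjusted p = 0.937). In roots the same gene was 5.66-fold higher in *res* than in WT control.

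LOC101251576 was among the genes that rose in both genotypes. It read 6.79, 6.82 and 6.90 in *res* salt leaflets and 1.13, 1.15 and 1.32 in *res* control leaflets, against 4.35, 4.68 and 3.89 in WT salt leaflets and 1.64, 1.37 and 1.44 in WT control leaflets. All 6 control arrays were below the median of all probe sets, so that no fold is given, and the *res* salt arrays stood above the WT salt arrays. Salt raised it in *res* (log2 difference 5.64 ± 0.16, adjusted p = 3.22e-09) and in WT (log2 difference 2.82 ± 0.16, adjusted p = 9.98e-08). In *res* roots, in contrast, the difference of salt from control was -1.32.

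LOC101252152, LOC101266293 and LOC101262560 also rose in both. LOC101252152 read 8.15, 8.34 and 8.18 in *res* salt leaflets and 5.96, 6.13 and 6.06 in *res* control leaflets, against 7.92, 7.97 and 8.03 in WT salt leaflets and 5.02, 6.19 and 6.10 in WT control leaflets, so that the salt arrays lay near 8 in each genotype. In *res* the rise of LOC101266293 was 4.29-fold, and in WT 5.26-fold. For LOC101262560 it was 5.33-fold in *res*, against 3.56-fold in WT. LOC101255604, also among the leading root genes, rose in WT leaflets (log2 difference 1.51 ± 0.19, adjusted p = 6.77e-05) and in *res* had a difference of 0.61 (adjusted p = 0.0597).

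A few genes that salt raised in WT roots fell in WT leaflets. They were LOC101265293, LOC101267385, LOC101267632, LOC101251363 and LOC101249721. LOC101265293 read 5.18, 5.16 and 5.24 in *res* salt leaflets and 6.55, 6.44 and 6.49 in *res* control leaflets, against 3.85, 3.93 and 3.49 in WT salt leaflets and 7.41, 7.31 and 7.35 in WT control leaflets. The 4 groups did not overlap. The fall in WT (log2 difference -3.60 ± 0.11, adjusted p = 5.3e-10) was larger than that in *res* (log2 difference -1.295 ± 0.11, adjusted p = 1.22e-05), and the difference between the responses passed the test (log2 difference 2.30 ± 0.16, adjusted p = 2.87e-06). LOC101267632 read 4.54, 4.92 and 4.58 in *res* salt leaflets and 4.38, 4.30 and 3.94 in *res* control leaflets, against 3.50, 3.06 and 3.01 in WT salt leaflets and 5.37, 5.24 and 5.49 in WT control leaflets. It fell in WT (log2 difference -2.18 ± 0.16, adjusted p = 8.94e-07), while in *res* the difference was 0.47 (adjusted p = 0.0963). LOC101267385 and LOC101251363 had salt differences of -0.87 and -0.76 in *res*, under the 2-fold limit, and of -2.63 and -2.11 in WT.

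In *res* leaflets 4 genes fell with salt, LOC101258704, LOC101265293, LOC101260176 and LOC101261825. LOC101258704 read 6.02, 5.96 and 6.10 in *res* salt leaflets and 7.99, 7.61 and 7.75 in *res* control leaflets, against 7.19, 7.11 and 7.22 in WT salt leaflets and 8.30, 7.89 and 7.50 in WT control leaflets. Its *res* salt arrays were the lowest, and *res* fell with salt (log2 difference -1.753 ± 0.17, adjusted p = 2.53e-05). Its other probe set had higher means with salt in both genotypes, 6.06 in *res* salt against 5.52 in *res* control leaflets and 6.27 in WT salt against 5.10 in WT control leaflets, and its difference in *res* was 0.54 (adjusted p = 0.00727), under the 2-fold limit. The fall therefore holds for 1 of the 2 probe sets.

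LOC101261825 was the single gene called in opposite directions in the 2 genotypes. It read 3.84, 3.95 and 3.90 in *res* salt leaflets and 5.33, 4.89 and 4.67 in *res* control leaflets, against 6.84, 6.96 and 7.01 in WT salt leaflets and 4.47, 4.98 and 4.59 in WT control leaflets. The controls overlapped, and in salt every *res* array was below and every WT array above all of the controls. Salt raised it in WT (log2 difference 2.25 ± 0.17, adjusted p = 8.07e-07) and lowered it in *res* (log2 difference -1.06 ± 0.17, adjusted p = 0.000993), and *res* was 8.22-fold lower than WT in salt (log2 difference -3.04 ± 0.17, adjusted p = 1.36e-07). Without replicate 1 of *res* control leaflets the fall in *res* was -0.88, under the 2-fold limit.

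In control leaflets few of the 83 genes followed the root pattern. *res* was higher than WT at 5 genes and lower at 8, 6.02% and 9.64% of the 83, where 2.61% and 5.78% of the 20429 genes were called. The median difference was -0.28 for the 83 and -0.10 for the 20429. When the quantile normalization was repeated within leaflets, 5 were higher and 5 lower, against 3.62% and 4.55% of the 20429 genes, and with only the control leaflet arrays in the fit 5 and 5. The 5 genes higher in *res* were LOC101254813, LOC101257012, LOC101261529, LOC101256566 and LOC101255883.

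LOC101254813 was the clearest of them. It read 4.75, 5.04 and 5.12 in *res* salt leaflets and 2.19, 2.34 and 1.62 in WT salt leaflets, and 4.26, 3.61 and 3.47 in *res* control leaflets, against 2.31, 2.14 and 1.22 in WT control leaflets. The *res* arrays were above the WT arrays in each treatment, 3.71-fold in control (log2 difference 1.89 ± 0.29, adjusted p = 0.00076) and 7.56-fold in salt (log2 difference 2.92 ± 0.29, adjusted p = 2.22e-05). The WT arrays lay around the median of all probe sets, so that both folds are not exact. LOC101257012 was 2.89-fold higher in *res* control leaflets (log2 difference 1.53 ± 0.14, adjusted p = 1.95e-05), and in salt the difference was 0.56. LOC101261529 was higher in *res* in control (log2 difference 1.15 ± 0.13, adjusted p = 8.34e-05) and in salt (log2 difference 1.79 ± 0.13, adjusted p = 1.53e-06). LOC101256566 and LOC101255883 were near the 2-fold limit in control, at 1.09 and 1.04. LOC101256566 was at 0.83 without replicate 1 of WT control leaflets. Its other 2 probe sets went the other way, with 3.44 and 1.98 in *res* control leaflets against 4.84 and 2.57 in WT control leaflets, and the brighter of them was called lower in *res* (log2 difference -1.40 ± 0.16, adjusted p = 8.09e-05). That gene's difference therefore depends on the probe set. LOC101255883 was at 0.97 and 0.85 without replicate 2 of *res* or of WT control leaflets.

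The 8 genes lower in *res* control leaflets were high in *res* control roots by the choice of genes, so that the sign of the genotype difference was opposite in the 2 organs. Among the 540 other genes high in *res* control roots, 21.9% were called lower and 5.56% higher in *res* control leaflets. Among the 290 other genes that salt raised in WT roots, the shares were 8.62% and 7.59%. LOC101267385 read 2.52, 2.78 and 2.83 in *res* control leaflets, against 3.94, 4.61 and 4.90 in WT control leaflets, without overlap (log2 difference -1.77 ± 0.21, adjusted p = 0.000123). LOC101267632 was also lower (log2 difference -1.16 ± 0.16, adjusted p = 0.00042), as was LOC101264391 (log2 difference -1.20 ± 0.21, adjusted p = 0.0019), whose difference was -0.96 when the quantile normalization was repeated within leaflets.

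For LOC101245158, LOC101268143 and LOC101267231 the WT control arrays were scattered. LOC101245158 read 3.36, 2.31 and 3.05 in *res* control leaflets, against 3.32, 6.24 and 6.30 in WT control leaflets, and LOC101268143 read 1.45, 1.26 and 1.54, against 1.57, 4.35 and 4.54. In each, replicate 1 of WT was close to the *res* level and the other 2 were far above it. With all arrays the differences were -2.38 (adjusted p = 0.0154) and -2.07 (adjusted p = 0.0255), and without replicate 1 of WT control leaflets they were -3.36 and -3.03. Without replicate 2 of WT control leaflets the adjusted p was 0.0593 for LOC101245158 and 0.0919 for LOC101268143, and without replicate 3 it was 0.0588 and 0.0934. Without replicate 2 of *res* control leaflets it was 0.0647 and 0.0763, and for LOC101268143 it was 0.0671 and 0.0587 without replicates 1 and 3. LOC101267231 read 4.24, 4.603 and 3.94, against 4.75, 6.20 and 6.35 (log2 difference -1.51 ± 0.32, adjusted p = 0.00644). Without replicate 1 of WT control leaflets the difference of LOC101267231 was -2.01 (adjusted p = 2.28e-06). With only the control leaflet arrays in the fit, the adjusted p was 0.0889 for LOC101245158, 0.106 for LOC101268143 and 0.0570 for LOC101267231, so that none of the 3 was called. In the fit without replicate 1 of WT control leaflets, 4 of the 83 genes were higher and 14 lower in *res* control leaflets, against 4.23% and 6.81% of the 20429 genes.

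In salt leaflets *res* was below WT at more of the genes. Of the 83, 22 were lower in *res* and 8 higher, 26.5% and 9.64%, against 7.84% and 2.18% of the 20429 genes. The median difference was -0.42 for the 83 and -0.20 for the 20429. This count depends on the scaling. When the quantile normalization was repeated within leaflets, 12 were lower and 9 higher, against 4.65% and 3.27% of the 20429 genes, and the medians were -0.31 and -0.05. Among the 290 other genes that salt raised in WT roots 15.5% were lower, and among the 540 other genes high in *res* control roots 8.89% were. LOC101267231 and LOC101261022 were lower in *res* in control and in salt, and LOC101254813 and LOC101261529 higher in both. LOC101256566 was also called higher in both by the probe set used, while the others had 3.82 and 1.60 in *res* salt leaflets against 4.31 and 1.46 in WT salt leaflets.

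The genes furthest below WT were LOC101261825 and LOC101246666, given above, followed by LOC101255428, LOC101253684 and LOC101260176. LOC101255428 read 2.29, 2.48 and 2.53 in *res* salt leaflets and 4.93, 4.78 and 4.84 in WT salt leaflets, and 2.38, 2.10 and 2.36 in *res* control leaflets, against 3.07, 3.37 and 3.17 in WT control leaflets. The *res* arrays were below the WT arrays in each treatment. The difference in salt was 5.35-fold (log2 difference -2.42 ± 0.12, adjusted p = 4.22e-08), and in control -0.92 (adjusted p = 0.000198). LOC101253684 read 4.36, 4.42 and 4.54 in *res* salt leaflets, against 6.65, 6.68 and 6.62 in WT salt leaflets (log2 difference -2.21 ± 0.39, adjusted p = 0.0018), and LOC101260176 2.75, 2.996 and 2.60, against 4.82, 4.53 and 4.83 (log2 difference -1.94 ± 0.18, adjusted p = 1.51e-05).

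Both genes with an older name belonged to this set. The sucrose synthase gene LOC543961 read 3.59, 3.57 and 2.98 in *res* salt leaflets and 3.03, 2.52 and 2.63 in *res* control leaflets, against 5.02, 5.26 and 5.27 in WT salt leaflets and 2.89, 3.47 and 2.40 in WT control leaflets. Salt raised it in WT (log2 difference 2.26 ± 0.25, adjusted p = 2.43e-05), *res* had a difference of 0.65 (adjusted p = 0.138), and *res* was 3.5-fold lower than WT in salt (log2 difference -1.81 ± 0.25, adjusted p = 0.000276). The glutamate decarboxylase gene LOC544313 read 2.57, 2.82 and 2.42 in *res* salt leaflets and 2.89, 2.52 and 2.99 in *res* control leaflets, against 3.91, 3.93 and 3.96 in WT salt leaflets and 2.16, 2.43 and 2.03 in WT control leaflets. The WT salt arrays stood above all other leaflet arrays. Salt raised it in WT (log2 difference 1.73 ± 0.15, adjusted p = 2.89e-06), in *res* the difference was -0.20 (adjusted p = 0.54), and *res* was 2.52-fold lower than WT in salt (log2 difference -1.34 ± 0.15, adjusted p = 5.14e-05). In roots in salt the difference of *res* from WT was 0.06 for LOC543961 and -0.45 for LOC544313.

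The genes furthest above WT in salt leaflets, after LOC101254813, were LOC101251576 (log2 difference 2.53 ± 0.16, adjusted p = 6.07e-07), LOC101245158, LOC101261529 and LOC101267632. LOC101245158 read 6.27, 6.44 and 6.30 in *res* salt leaflets, against 4.18, 4.29 and 4.46 in WT salt leaflets. These arrays did not overlap, and the adjusted p was 0.0338 for a difference of 2.02, in a fit that pools the spread over all 12 leaflet arrays. It was between 0.0705 and 0.0912 when any one of the *res* or WT salt arrays was left out. Without replicate 1 of WT control leaflets it was 2.02e-05. LOC101267632 was 2.81-fold higher in *res* in salt and 2.24-fold lower in control.

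The salt response of leaflets differed between genotypes at 21 of the 83 genes by the test of the difference itself. It was lower in *res* than in WT for 14 and higher for 7, 16.9% and 8.43% of the 83, against 6.09% and 4.03% of the 20429 genes. Among the 290 other genes that salt raised in WT roots, 14.1% had a lower and 4.48% a higher response in *res*. For the 540 other genes high in *res* control roots the shares were 7.41% and 16.9%. Of the 14 genes among the 83 with a lower response, 12 were called higher with salt in WT leaflets. The largest negative differences were those of LOC101261825 (log2 difference -3.32 ± 0.23, adjusted p = 3.34e-06), LOC101246666 (log2 difference -2.82 ± 0.25, adjusted p = 2.25e-05), LOC101260176 (log2 difference -1.95 ± 0.26, adjusted p = 0.000514) and LOC544313 (log2 difference -1.93 ± 0.21, adjusted p = 9.83e-05). LOC101264466 (log2 difference -1.72 ± 0.44, adjusted p = 0.036) followed, but its call held in few other settings. Its adjusted p was 0.0516 with the replicate block, 0.0609 with the quantile normalization repeated within leaflets, 0.131 without moderation of the variances and between 0.0534 and 0.0900 when any leaflet array other than replicate 1 of WT control was left out. Without that replicate 1 its difference was -2.22 and its adjusted p 1.97e-06. The largest positive ones were those of LOC101245158 (log2 difference 4.401 ± 0.85, adjusted p = 0.00691), LOC101251576 (log2 difference 2.81 ± 0.23, adjusted p = 1.05e-05), LOC101267632 (log2 difference 2.65 ± 0.23, adjusted p = 1.56e-05), LOC101249721 (log2 difference 2.31 ± 0.45, adjusted p = 0.00743) and LOC101265293. LOC101249721 read 4.57, 4.97 and 4.89 in *res* salt leaflets and 4.51, 4.004 and 4.04 in *res* control leaflets, against 3.18, 3.67 and 3.24 in WT salt leaflets and 4.11, 5.64 and 5.401 in WT control leaflets.

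**Figure D5:**
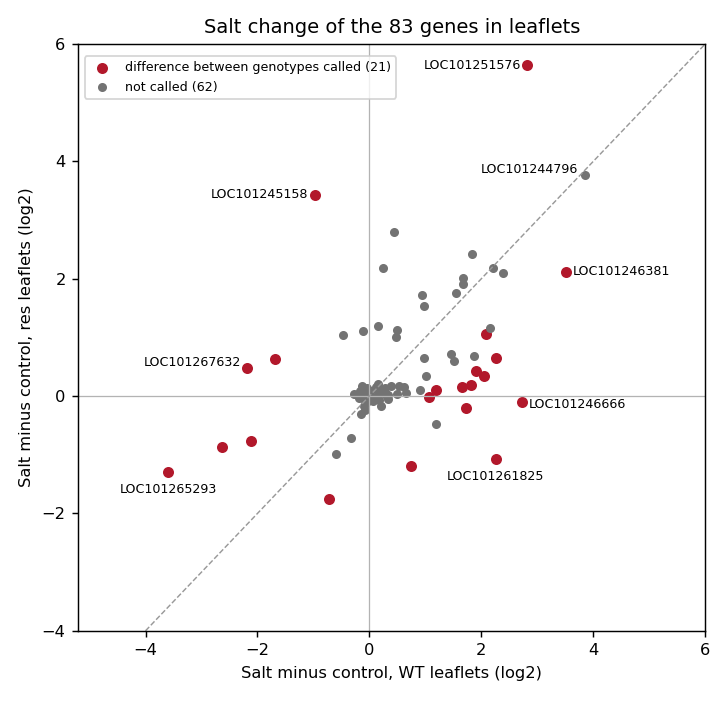
Salt minus control in WT leaflets (x axis) against salt minus control in *res* leaflets (y axis), both log2, for the 83 genes; the dashed line marks equal change. Red points are the 21 genes whose response differed between genotypes by the test, with LOC101245158 and LOC101251576 above the line and LOC101261825, LOC101246666 and LOC101246381 below it.

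For LOC101245158 and LOC101250479 the WT control arrays were scattered, and the fit pools the spread over all 12 leaflet arrays. LOC101245158 rose in *res* leaflets (log2 difference 3.43 ± 0.60, adjusted p = 0.00224), and the scattered WT control arrays given above enter its response in WT, -0.97 (adjusted p = 0.296). Without replicate 1 of WT control leaflets the adjusted p of its rise in *res* was 3.28e-07. LOC101250479 read 5.06, 5.47 and 5.26 in *res* salt leaflets and 2.35, 2.61 and 2.42 in *res* control leaflets, against 5.04, 5.002 and 4.81 in WT salt leaflets and 1.85, 6.01 and 5.69 in WT control leaflets. Of the WT control arrays 1 was low and 2 were higher than every other array. The *res* salt and *res* control arrays did not overlap. The rise in *res* (log2 difference 2.80 ± 0.78, adjusted p = 0.0372) had an adjusted p between 0.0555 and 0.121 when any one of the *res* arrays or of the WT salt arrays was left out. With replicate 1 of WT control leaflets left out, that adjusted p was 4.74e-08. Without replicate 1 of WT control leaflets, 12 of the 83 genes had a higher and 16 a lower salt response in *res* than in WT, against 5.74% and 10.6% of the 20429 genes. The difference of the responses was then 5.38 for LOC101245158, 2.78 for LOC101249721 and -2.22 for LOC101264466. Without moderation of the variances the adjusted p was 0.0550 for LOC101245158 and 0.0529 for LOC101249721, and 5 of the 83 genes had a higher and 9 a lower response.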

How the data were processed

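Total RNA of roots and leaflets was hybridized to Affymetrix Tomato Gene 1.1 ST arrays. The authors deposited 1 log2 intensity per array for each of 67795 probe sets, made with robust multi-array average (RMA, background correction, quantile normalization and a summary of the probes). They used Partek for annotation and tests, whose version is not given here. RMA compresses low signals. The arrays were not on 1 distribution as deposited, with medians over all probe sets of 1.84 to 2.17 in leaflets, so that the quantile normalization was repeated within each tissue as an alternative. The values were used as deposited, and the small number of arrays, 3 per group, limits the precision.

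Genes were named from the platform's symbol table (23194 probe sets with 1 symbol, 170 with several, 44431 with none) and the probe set with the highest mean was used for each gene. LOC numbers were matched to RefSeq gene numbers (assembly SLM_r2.1) for names and gene order, and all 83 matched. Sequences, promoters and descriptions were not used here, and the keyword lists planned for functions had no members.

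The 12 arrays of a tissue were fitted with limma 3.58.1 (R 4.3.3, Python 3.11.15) as 4 groups, with Benjamini-Hochberg adjustment of p across the 67795 probe sets. Differences carry the SE of the moderated variance. On data simulated for WT leaflets, 46 of 50 probe sets changed 2.5-fold, 50 of 50 changed 4-fold and 0 of 50 changed 1.5-fold were called, with 0 calls among 67595 unchanged. A change of 1.5-fold lies under the 2-fold limit. The simulated noise was normal and independent, with 1 spread per probe set and no array far off its partners. It therefore checks the fit and does not give the rate of false calls in these arrays. The genes named are the 10 with the largest smaller rise, up to 5 in each direction with the largest called difference in each leaflet comparison, those nearest to the limits, and up to 4 of the list by adjusted p. The genes with the largest salt change in *res* roots, those with an older name, the neighbours and the genes described for their spread were added after their values were seen. The 83 genes and the lists were chosen with earlier results of these data known. Alternatives were another fit, scaling, filter or limit and leaving out each array.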

Additional observations from a re-analysis of the deposited data

Results flagged for a closer look

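In leaflets the salt response of 21 of the 83 genes differed between *res* and WT by the test of the interaction (limma, at least 2-fold with adjusted p under 0.05). Values are the log2 salt change in *res* minus that in WT. The response was lower in *res* for LOC101261825 (-3.32), LOC101246666 (-2.82), LOC101260176 (-1.95), LOC544313 (-1.93), LOC101264466 (-1.72), LOC101265511 (-1.63) and LOC543961 (-1.61). It was also lower for LOC101255428 (-1.501), LOC544158 (-1.48), LOC101246381 (-1.40), LOC101252453 (-1.09), LOC101255883 (-1.09), LOC101258704 (-1.03) and LOC101265384 (-1.02). The response was higher in *res* for LOC101245158 (4.401), LOC101251576 (2.81), LOC101267632 (2.65), LOC101249721 (2.31), LOC101265293 (2.30), LOC101267385 (1.76) and LOC101251363 (1.35).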

How the results depend on the processing

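With the limit for both rises lowered by 0.25, 126 genes met the limits, and with *res* and WT within 0.5 in salt, 50 did. With 1 root array left out the number was between 75 and 88, and with the quantile normalization repeated within roots it was 83, of which 79 were the same genes. Leaving out 1 leaflet array gave 10 to 18 of the 83 genes called between *res* and WT control leaflets, 25 to 30 in salt leaflets, 29 to 33 with salt in WT, 19 to 25 with salt in *res* and 16 to 28 for the interaction. For the list of 13 genes in roots, leaving out 1 array gave 3 to 4 between *res* and WT in control, 1 to 2 in salt, 6 to 8 with salt in WT, 4 with salt in *res* and 5 to 7 for the interaction. The 2 in salt came without replicate 3 of WT salt roots. In leaflets the list gave 3 to 4, 2 to 3, 9 to 10, 5 to 6 and 6 to 7 in the same order. The other alternatives left 62 total counts within 1.5 times the reported ones, but some splits by direction moved more. With the quantile normalization repeated within leaflets, 9 were higher and 12 lower in *res* salt leaflets in place of 8 and 22, 5 and 5 in control leaflets in place of 5 and 8 (the same with only the arrays compared), and for the list 2 and 1 in salt in place of 1 and 2. It moved the median of the 20429 genes between *res* and WT to 0.01 in control, against -0.10, and to -0.05 in salt, against -0.20. Of 49 named leaflet values, none changed sign under any alternative, and 12 dropped below a threshold in at least 1.

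The replicate numbers were not used to pair the arrays. Same-numbered arrays of different groups had deviations that correlated between -0.10 and 0.10 in leaflets and between -0.08 and 0.06 in roots. Such correlations cannot show a pairing that touches few genes, and roots were not compared with leaflets. With the replicate block, 13, 30, 31 and 22 of the 83 genes were called in the 4 leaflet comparisons, as without it, and 20 in place of 21 for the interaction, where LOC101264466 was lost (adjusted p = 0.0516). The list of 13 genes gave the same counts with the block. Detection calls were not used here, which limits what can be said of genes with low signal in leaflets.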
